A study of Mus musculus with 118 samples.

Results

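The replication-dependent histone genes of cluster 1 on mouse chromosome 13 were examined for peaks of 3 Polycomb proteins in untreated embryonic stem cells (ESCs). Members were the protein-coding genes of chromosome 13 whose GENCODE M21 symbols begin with Hist1h, which gave 54 of 21938 protein-coding genes. They comprised 6 H1 (linker), 13 H2A, 15 H2B, 9 H3 and 11 H4 genes. A promoter window was each annotated transcription start site (TSS) plus or minus 2500 bp, and a gene was counted as having a peak if at least 1 bp of the peak lay in a window. All positions are on mm10 and are counted from base 1.

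Replication-dependent histone genes supply the bulk of histone protein during S phase, when new DNA is packaged into nucleosomes. Their transcription is switched on by NPAT in a nuclear compartment termed the histone locus body, and their mRNAs are intronless and end in a conserved stem-loop, bound by SLBP, in place of a poly(A) tail. Polycomb repressive complex 1 (PRC1), with RING1B in its catalytic core, ubiquitylates histone H2A, and PRC2, of which SUZ12 is a core subunit, methylates histone H3. PCGF2 marks canonical PRC1, which is recruited through the PRC2 mark, whereas variant PRC1 complexes reach CpG-rich promoters by other routes.

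Calibrated ChIP-seq (cChIP-seq), with human HEK293T cells mixed in before crosslinking as an internal standard, was used to profile these proteins. The PRC1CPM line (clone 41) carries Ring1a with the inactivating mutations I50A/D53K in all its cells, together with Ring1b alleles, written Ring1b(WT->I53A/D56K)fl/fl, that tamoxifen converts to the inactive form. The PRC1CKO line (clone B9) is Ring1a-/- and carries Ring1bfl/fl alleles, so that it lacks RING1A and loses RING1B on tamoxifen. Both are E14 ESCs with Rosa26::ERT2-Cre, the tamoxifen-dependent recombinase expressed from the Rosa26 locus. Each line is represented by a single clone, and the cells behind these lists were untreated (0 h). RING1B, SUZ12 and PCGF2 were profiled in 3 untreated PRC1CPM samples each, and SUZ12 also in 3 untreated PRC1CKO samples. Each protein has 1 combined list of positions, with 18643 RING1B, 7438 SUZ12 and 3680 PCGF2 peaks. The lists carry no signal height, replicate or read depth, so no error between replicates could be attached to any count below. RING1B peaks were retained by the authors only where signal fell significantly on tamoxifen in PRC1CKO cells, so absence from that list does not show absence of RING1B.

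The sequences of a few promoters illustrate the features on which the results turn. The first is a divergent promoter, in which an H2B gene and an H2A gene are transcribed away from each other, and the one that lay closest to the centre of its RING1B peak. The next is the promoter of Hist1h2bp and Hist1h2an, which also lay in a RING1B peak. Then follow a pair of near-identical H2B-H2A promoters where no peak was listed, the testis-specific H2B gene that carried the SUZ12 peak, and an H1 promoter. The divergent promoters headed by 2 gene names are given whole between the TSSs, read from the H2B gene towards the H2A gene. Hist1h2ba is also divergent, with Hist1h2aa 306 bp away, but only the 250 bases upstream of its TSS are given. For Hist1h1c the 150 bases upstream of the TSS are given. All are from the RefSeq copy of GRCm38.p6. Capitals mark the CCAAT box, the TATA box (letters TATAAA), the octamer (letters ATTTGCAT) and the H1 element (letters AAACACA) on either strand. The printed promoter of Hist1h2br-Hist1h2ap is contained, base for base, in that of Hist1h2bq-Hist1h2ao.
Hist1h2bc-Hist1h2ac (chr13:23683949-23684198, minus strand): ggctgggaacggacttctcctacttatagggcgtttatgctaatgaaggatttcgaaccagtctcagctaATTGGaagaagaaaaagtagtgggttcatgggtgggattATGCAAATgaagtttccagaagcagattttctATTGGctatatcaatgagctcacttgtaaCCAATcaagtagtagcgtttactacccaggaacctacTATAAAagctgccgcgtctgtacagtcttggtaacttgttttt
Hist1h2bp-Hist1h2an (chr13:21787219-21787460, minus strand): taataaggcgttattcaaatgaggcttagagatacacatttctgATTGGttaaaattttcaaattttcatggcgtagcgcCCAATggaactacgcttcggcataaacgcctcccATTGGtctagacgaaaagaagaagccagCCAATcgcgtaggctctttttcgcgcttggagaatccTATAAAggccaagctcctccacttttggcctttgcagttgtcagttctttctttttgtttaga
Hist1h2bq-Hist1h2ao (chr13:21810198-21810464, plus strand): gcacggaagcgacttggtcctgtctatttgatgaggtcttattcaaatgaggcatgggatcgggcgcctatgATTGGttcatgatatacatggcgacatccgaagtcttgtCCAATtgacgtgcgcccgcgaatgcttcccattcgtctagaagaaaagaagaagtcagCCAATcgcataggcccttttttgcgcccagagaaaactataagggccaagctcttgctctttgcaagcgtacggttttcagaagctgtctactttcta
Hist1h2br-Hist1h2ap (chr13:21833508-21833742, minus strand): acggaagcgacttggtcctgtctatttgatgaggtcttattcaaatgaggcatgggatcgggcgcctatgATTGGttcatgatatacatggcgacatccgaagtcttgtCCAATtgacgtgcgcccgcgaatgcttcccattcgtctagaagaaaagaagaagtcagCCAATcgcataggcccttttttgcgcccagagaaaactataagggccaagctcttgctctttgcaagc
Hist1h2ba (chr13:23934157-23934406, minus strand): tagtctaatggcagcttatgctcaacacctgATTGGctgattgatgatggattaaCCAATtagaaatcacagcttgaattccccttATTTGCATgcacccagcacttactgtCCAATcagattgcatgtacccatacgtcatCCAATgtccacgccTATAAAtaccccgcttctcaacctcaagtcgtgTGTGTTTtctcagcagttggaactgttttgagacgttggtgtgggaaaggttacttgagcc
Hist1h1c (chr13:23738658-23738807, plus strand): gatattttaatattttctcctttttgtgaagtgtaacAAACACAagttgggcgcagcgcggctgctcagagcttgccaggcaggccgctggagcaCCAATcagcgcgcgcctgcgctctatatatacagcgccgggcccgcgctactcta

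RING1B peaks were found at most of the cluster. A RING1B peak met the promoter window of 46 of 54 members (85.2%, Wilson 95% interval 73.4 to 92.3%), compared with 58.5% of all protein-coding genes and 87.5% of those with a CpG-rich promoter. The interval covers counting error only and treats as independent genes that in part share a peak. A promoter was called CpG-rich where CpG observed/expected was at least 0.6 and GC content at least 50% within 250 bp of a TSS, which held for 41 of the members. The TSS itself lay inside a RING1B peak for 40 members (74.1%) compared with 54.9% of all protein-coding genes and 84.9% of those with a CpG-rich promoter. By the window, the members' share lay above that of all genes and close to that of CpG-rich promoters. It pools the 41 CpG-rich members, of which 33 had a RING1B peak, with the other members, all of which had one. Most of these others were not poor in CpG, as they missed only the GC cut (Hist1h3d, for example, had 1.15 and 49.3%). The exceptions, with CpG observed/expected below 0.6, were Hist1h1d, Hist1h1t, Hist1h2bb and Hist1h3f. By the TSS itself, the members' share lay above that of all genes and below that of CpG-rich promoters.

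The genes fall into 4 blocks, separated by over 100 kb. The first block spans 118 kb and holds 18 members, of which 12 had a RING1B peak. All 5 members of the second block, which spans 7.65 kb, had one. In the third block of 29 members over 233 kb, 27 had a RING1B peak. The last block is the testis-specific pair Hist1h2ba and Hist1h2aa, both with a RING1B peak.

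**Figure D1:**
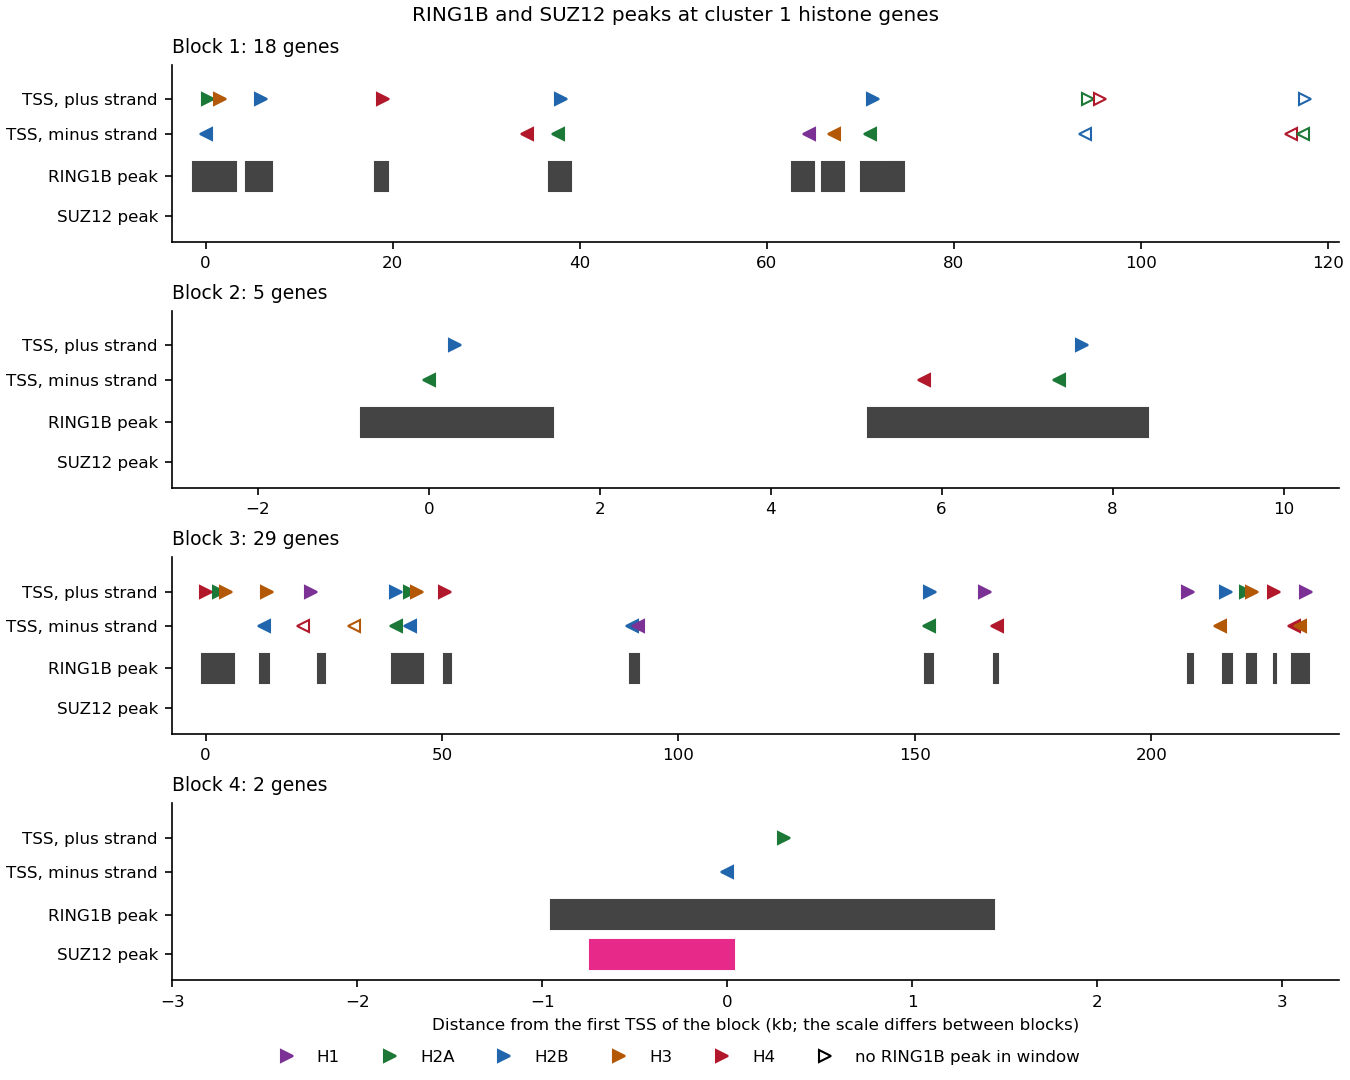
Map of the 4 blocks of cluster 1 histone genes, with distance from the first TSS of each block in kb on the horizontal axis (the scale differs between blocks). Triangles are TSSs coloured by histone class and pointing in the direction of transcription, open where no RING1B peak met the window, and boxes are RING1B and SUZ12 peaks. The 6 open triangles at the right of block 1 and the 2 in block 3 are the 8 members without a RING1B peak, and the only SUZ12 peak is in block 4.

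The core histone genes H2A and H2B, whose products dimerise in the nucleosome, are largely arranged as divergent pairs. There were 11 such pairs, with TSSs 176 to 306 bp apart (median 268 bp), and each joined an H2A gene with an H2B gene. In 9 of the 11 pairs both TSSs lay in the same RING1B peak. The centre of that peak lay 70 to 2352 bp from the centre of the pair, and the closest to centred was at Hist1h2ac and Hist1h2bc. In contrast, the pairs Hist1h2bq-Hist1h2ao and Hist1h2ap-Hist1h2br had no peak. Across the classes, 11 of 13 H2A genes and 13 of 15 H2B genes had a RING1B peak, and for all 13 of these H2B genes the TSS was inside it. Among H2A genes the exception was Hist1h2ab, where the peak started 49 bp downstream of the TSS.

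H3 and H4 genes encode the histones that form the central tetramer of the nucleosome. A RING1B peak met the windows of 8 of 9 H3 genes, and the TSS was inside it for 7. At Hist1h3c the peak lay 520 bp upstream of the TSS and contained the TSS of Hist1h2bb. Of 11 H4 genes, 8 had a peak in the window and 7 at the TSS. The window of Hist1h4k only just reached the peak of Hist1h2ak and Hist1h2bn, 2408 bp away. Peaks at H4 genes ranged from 562 bp at Hist1h4b, the narrowest at any member, to 6806 bp at Hist1h4h, the widest.

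All 6 H1 genes, which encode linker histones, had a RING1B peak in their windows, but only 3 had the TSS inside it (Hist1h1a, Hist1h1b and Hist1h1e). At Hist1h1c the 968 bp peak (chr13:23738854-23739821) began 46 bp downstream of the TSS and covered 99.2% of the coding sequence. At Hist1h1d the GENCODE TSS lay 1535 bp from a peak of 1491 bp (chr13:23554797-23556287) that covered the entire coding sequence. The RefSeq TSS of Hist1h1d is 1770 bp from the GENCODE one and lay inside that peak. CpG observed/expected was 0.0649 at the GENCODE TSS of Hist1h1d and 0.795 at the RefSeq TSS. For Hist1h1t, the testis-specific H1 gene, the nearest peak was 1988 bp away and contained the TSS of Hist1h4c, so this H1 gene had no peak of its own.

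**Figure D2:**
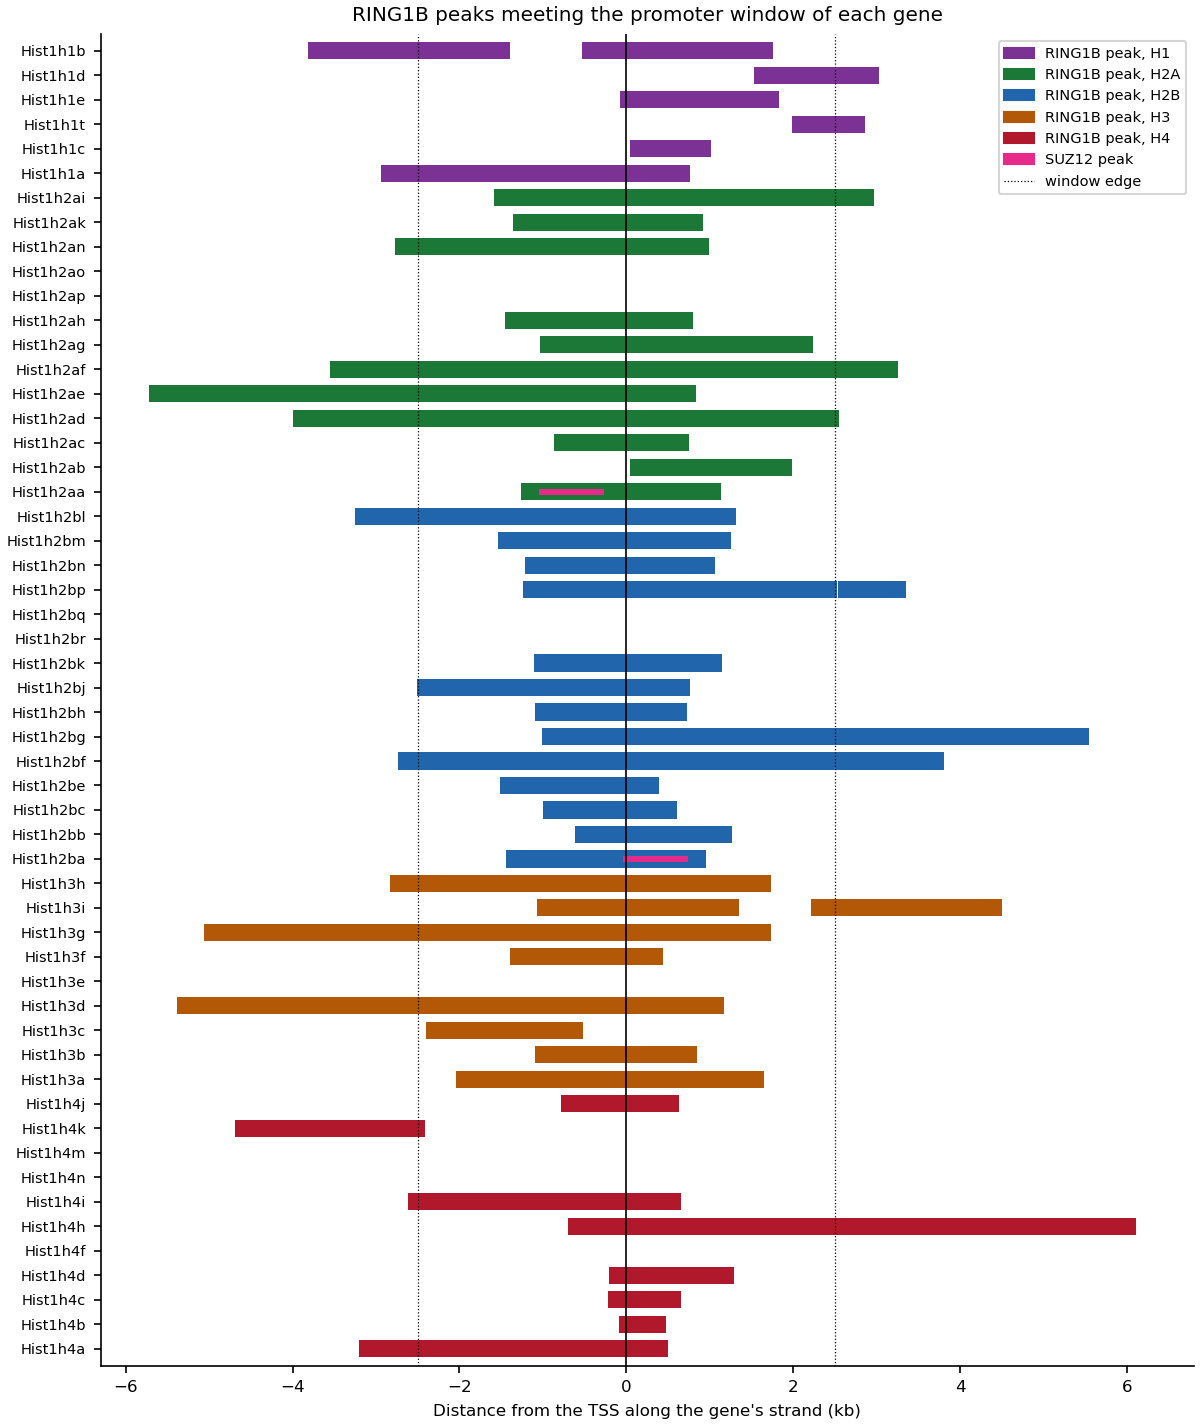
RING1B peaks (wide bars, coloured by class) and the SUZ12 peak (thin bars) that meet each member's promoter window, against distance from the TSS along the gene's strand in kb. The dotted lines are the window edges, 2500 bp from the TSS, and 40 of the 54 rows have a bar over the TSS at 0, where the most upstream TSS of the gene is placed.

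Histone genes are short, and most lay whole in the peak at their TSS. Of the 40 members whose TSS lay in a RING1B peak, 38 had all of their coding sequence in that peak. At Hist1h3f the peak held 1.23% of the coding sequence. At Hist1h2be, an H2B gene, it held 0% of it, because the GENCODE TSSs are at least 35122 bp from the coding sequence (chr13:23585579-23585956). These TSSs lay in the peak shared with Hist1h1e (chr13:23620729-23622633). The coding sequence of Hist1h2be lay instead in a RING1B peak of 2333 bp (chr13:23584567-23586899) that met no GENCODE window of a member and is not among the peaks counted here, and a second RefSeq TSS of this gene (position 23585970) is in that peak. For the 9 members that were the only one with a TSS in their peak, the peak reached a median of 612 bp upstream and 1251 bp downstream of the TSS, and the downstream arm was longer in 6 of them.

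Many members shared their peak. The 46 members were covered by 24 different RING1B peaks, amounting to 59.9 kb. Of these, 17 peaks met the windows of 2 or more members and 12 contained the TSSs of 2 or more, which together held the TSSs of 31 members. The peak shared by the most genes was chr13:23570384-23576935, 6552 bp wide, which contained the TSSs of 5 members: the divergent pairs Hist1h2ae-Hist1h2bg and Hist1h2bf-Hist1h2ad and the H3 gene Hist1h3d. The widest was chr13:23530356-23537161, at 6806 bp, with the TSSs of Hist1h4h, Hist1h2af and Hist1h3g.

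Another 3 peaks contained the TSSs of 3 members. A peak of 4560 bp (chr13:21714833-21719392) held those of Hist1h2bl, Hist1h2ai and Hist1h3h, and one of 3700 bp (chr13:23760731-23764430) those of Hist1h4a, Hist1h3a and Hist1h1a. The third, of 3277 bp (chr13:22040705-22043981), held those of Hist1h4i, Hist1h2ag and Hist1h2bj. Each of these peaks therefore joined genes of 3 classes. A peak of 2277 bp (chr13:21752913-21755189) also met 3 windows, those of Hist1h4k, Hist1h2ak and Hist1h2bn, but contained only the TSSs of the latter pair. The narrowest peaks were those of 562 bp at Hist1h4b (chr13:23756930-23757491), 824 bp in the window of Hist1h2bp (chr13:21789993-21790816), which held no member's TSS, and 878 bp at Hist1h4c (chr13:23697802-23698679).

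RING1B peaks at the members were wider, at the median, than promoter peaks without SUZ12 or PCGF2. The median width of the 24 peaks was 2098 bp (quartiles 1502 and 2910 bp). In comparison, the 6802 RING1B peaks at promoters genome-wide that overlapped neither a SUZ12 nor a PCGF2 peak had a median of 1165 bp, with quartiles of 776 and 1690 bp. Of the 24 peaks, 20 were wider than that median of 1165 bp. RING1B peaks at promoters overlapping SUZ12 but not PCGF2 had a median of 1934 bp, and those overlapping both had a median of 4610 bp. The median over all promoter RING1B peaks was 1712 bp. It was 2004 bp at replication-dependent histone genes elsewhere and 2019 bp at replacement histone genes, near that of the members. At genes for factors of histone gene expression it was 1302 bp, and at ribosomal protein genes 1326 bp. Width moved with sharing: the 12 peaks with 2 or more members' TSSs had a median of 2836.5 bp (1616 to 6806 bp), and the 9 with 1 member's TSS had a median of 1885 bp (562 to 2787 bp). A wider peak can by its extent contain more TSSs. These are descriptions, as peaks of a single list are not replicates and no test was applied.

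**Figure D3:**
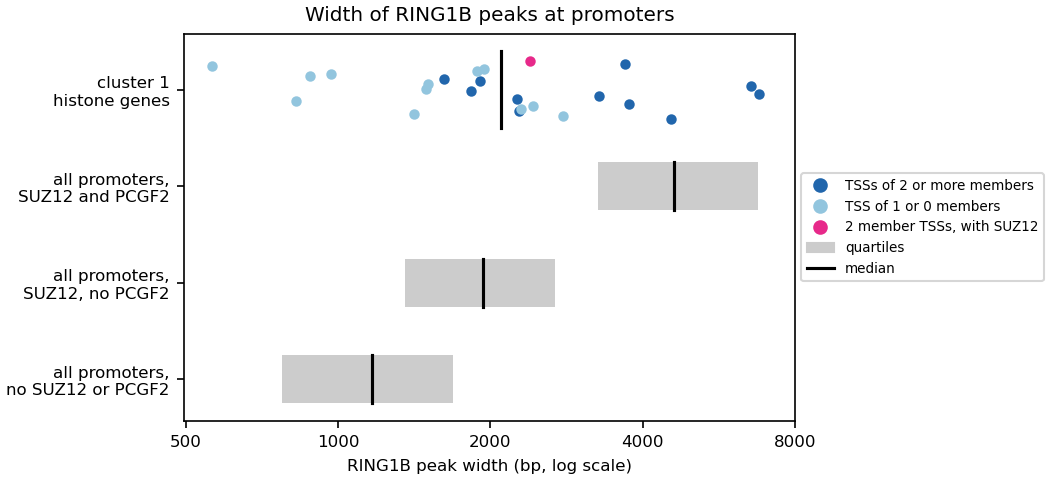
Width of RING1B peaks in bp on a log scale. Points are the 24 peaks at cluster 1 histone genes, coloured by how many members' TSSs they contain, and grey bars with a black line are the quartiles and median of all promoter RING1B peaks split by overlap with SUZ12 and PCGF2, showing the members' median of 2098 bp above the 1165 bp of promoter peaks without SUZ12 or PCGF2.

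SUZ12 and PCGF2 peaks were nearly absent from the cluster, although absence from these lists does not show absence of the protein. A SUZ12 peak met the windows of 2 members (3.7%), compared with 27.6% of all protein-coding genes and 40.3% of those with CpG-rich promoters. No member had a PCGF2 peak, where the shares were 14.8% of all protein-coding genes and 22.1% of those with CpG-rich promoters. It follows that 0 members had listed peaks of all 3 proteins. A RING1B peak without a SUZ12 or PCGF2 peak was found at 44 members (81.5%) and at 31.1% of all protein-coding genes. The share was 47.3% among genes with CpG-rich promoters and 59% among ribosomal protein genes. Outside the testis-specific pair the nearest SUZ12 peak was 13776 bp from a member TSS and the nearest PCGF2 peak 14086 bp, both measured from Hist1h2ah.

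The members with SUZ12 were Hist1h2ba and Hist1h2aa, the H2B and H2A genes known for expression in male germ cells. They form a divergent pair with TSSs 306 bp apart, and both TSSs lay in a RING1B peak of 2396 bp (chr13:23933201-23935596). A single SUZ12 peak of 776 bp (chr13:23933415-23934190) lay wholly within it and covered 32.4% of its length. The SUZ12 peak contained the whole of Hist1h2ba and ended 272 bp from the TSS of Hist1h2aa. It was narrow for its list, with 10.9% of all SUZ12 peaks as narrow or narrower. The remaining testis-specific member, Hist1h1t, had no SUZ12 or PCGF2 peak, and among the 51 members that are not testis-specific 0 had a SUZ12 peak. CpG observed/expected was 0.685 at Hist1h2ba and 0.664 at Hist1h2aa, below the median of 0.925 for all members.

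The 8 members without a RING1B peak were of 2 kinds. The first comprised 6 neighbouring genes at the end of block 1: Hist1h2bq (chr13:21806612-21810197), Hist1h2ao (chr13:21810465-21810944), Hist1h4m (chr13:21811746-21812147), Hist1h4n (chr13:21831767-21832196), Hist1h2ap (chr13:21833026-21833507) and Hist1h2br (chr13:21833743-21837530). These form an inverted repeat. In windows of 2500 bp to each side of the pair centres, Hist1h2bq-Hist1h2ao and Hist1h2ap-Hist1h2br shared an identical run of 3950 bp, and 90% of the 40-base words of the second window were found in the first. Among all other combinations of the 11 divergent pairs the longest shared run was 362 bp.

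The authors kept only reads that map to a single place, and reads were 40 bases long, so the share of 40-base words found once in the genome was counted for each window. It was 2.15% for Hist1h2bq, 2.16% for Hist1h2ao, 2.32% for Hist1h2br, 2.34% for Hist1h2ap, 4.15% for Hist1h4m and 24.7% for Hist1h4n. These are the lowest values in the cluster, since the 46 members with a RING1B peak ranged from 63.5% (Hist1h3f) to 97.5% (Hist1h1b). Words in these 6 windows occurred a median of 2 times, or 3 times for Hist1h4m. Their promoters were CpG-rich, with CpG observed/expected from 0.97 to 1.01. All 8 members without a RING1B peak were CpG-rich, compared with 33 of the 46 with one. Most of the rest of the 46 missed only the GC cut. Paired reads can be placed by either end, and words were counted by exact match only, so this measure is not the mapping itself. Its part in the absence of peaks was not tested.

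The remaining members without a peak were Hist1h4f (chr13:23551258-23551648) and Hist1h3e (chr13:23561534-23562369), which flank Hist1h1d in block 3. Words found once made up 95.1% of the window of Hist1h4f and 74.2% of that of Hist1h3e. The nearest RING1B peak was 3149 bp from the TSS of Hist1h4f and 6082 bp from that of Hist1h3e, and CpG observed/expected was 0.946 and 1.09, respectively. In total, 12 members had under 80% of words found once, and 5 of these had a RING1B peak (41.7%). Of the 42 members at 80% or more, 41 had one (97.6%), with Hist1h4f as the exception. The SUZ12 and PCGF2 lists also rest on uniquely mapped reads, and among these 42 members 2 had SUZ12 and 0 had PCGF2. Among the other protein-coding genes of chromosome 13, a RING1B peak was found at 9 of 90 genes under 80% (10%) and at 431 of 694 above it (62.1%). These genes were not matched to the members or to each other for CpG content or gene family.

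**Figure D4:**
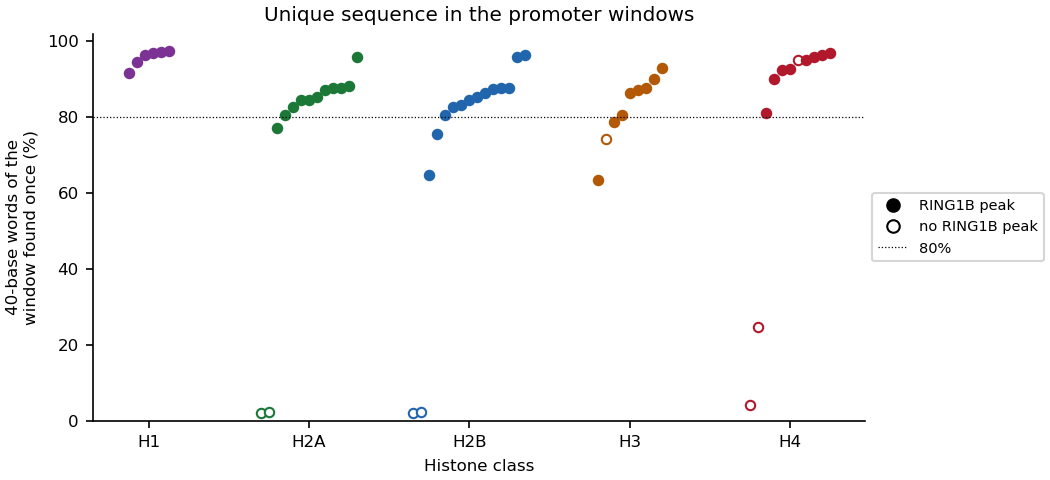
Share of 40-base words found once in the genome in each member's promoter window, in percent, by histone class, with filled points for members with a RING1B peak and open points for those without. The 6 points at or below 24.7% are all open, while 41 of the 42 points at or above the dotted 80% line are filled.

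Sets of related genes were counted by the same rule. All 13 replication-dependent histone genes outside cluster 1 had a RING1B peak, of which 2 had SUZ12 and 0 had PCGF2. Those with SUZ12 were Hist3h2a and Hist3h2ba, named after their values were seen. Of 11 replacement histone genes, which are expressed outside S phase as well, 10 had RING1B, 4 had SUZ12 and 1 had PCGF2. Of 15 genes for factors of histone gene transcription and mRNA processing, including Npat and Slbp, 12 had RING1B, 2 had SUZ12 and 0 had PCGF2. Ribosomal protein genes were picked by symbol alone, as Rpl or Rps followed by a number, without Rps6k and names ending in l. This rule can admit related genes and miss some ribosomal proteins. The set had RING1B at 52 of 83 (62.7%), SUZ12 at 4 and PCGF2 at 0. The 49 other protein-coding genes with a TSS between the members had RING1B at 7 (14.3%), SUZ12 at 3 and PCGF2 at 3 (6.12% each). Just 4 of them had a CpG-rich promoter. Most have symbols beginning with Vmn1r, and none of these Vmn1r genes had a listed peak. All 7 genes with RING1B were outside the Vmn1r family, so the low share describes mainly the Vmn1r genes. The set also covers the whole 2.22 Mb span, gaps between blocks included, and not only the nearest neighbours of the members.

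**Figure D5:**
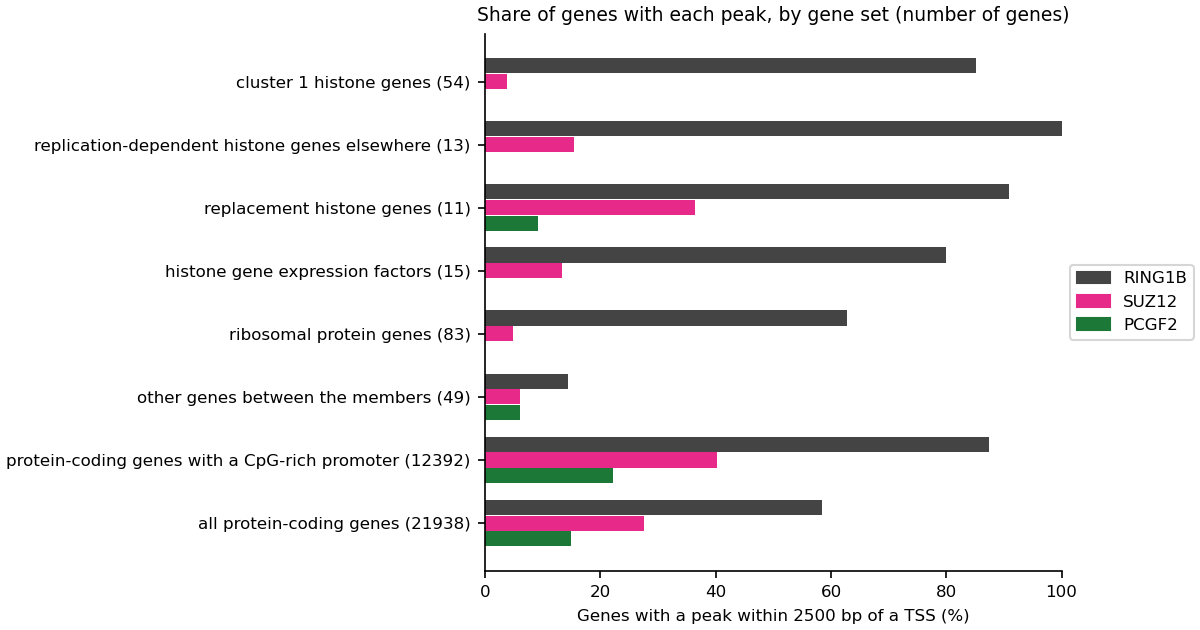
Percent of genes in each set with a RING1B, SUZ12 or PCGF2 peak within 2500 bp of a TSS, with the number of genes in parentheses. Bars start at 0, and the cluster 1 histone genes show 85.2% with RING1B, 3.7% with SUZ12 and 0% with PCGF2.

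The promoters were searched for 4 sequence elements known from histone genes. RefSeq promoters, from 250 bases before to 50 after the TSS, were matched for 51 members and searched on both strands, with the same search over 32851 RefSeq mouse promoters. The CCAAT box, bound by NF-Y, was found at 43 of the 51 (84.3%) and in 37.4% of all promoters. It was present at all 6 H1, 13 H2A, 14 H2B and 7 H3 promoters searched but at only 3 of 11 H4 promoters. The octamer ATTTGCAT, bound by POU2F1, was found at 5 H2A and 6 H2B promoters, at 0 of the H1, H3 and H4 promoters, and in 1.74% of all promoters. AAACACA, an element known from H1 promoters, was present at 5 of 6 H1, 2 of 13 H2A and 2 of 14 H2B promoters, at 0 of the H3 and H4 promoters, and in 7.18% of all promoters. The TATA box was found at 31 of 51 (60.8%), at 50% (H2B) to 72.7% (H4) of the promoters of each class, and in 13.6% of all promoters. Divergent promoters can hold the same copy of an element for both genes, and a match is not evidence of binding.

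The members also shared the 3′ stem-loop of replication-dependent histone mRNAs. A stem of 6 paired bases around a loop of 4 was found within 200 bases after the start of the stop codon at 51 of 54 members, in 5 sequence versions. This search was chosen after the peaks had been seen. It is shown because it is the feature that sets these mRNAs apart, with the stem in capitals.
Version at 33 members: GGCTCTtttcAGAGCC
Version at 8 members: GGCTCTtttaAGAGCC
Version at 7 members: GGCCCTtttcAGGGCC
The stem-loop lay inside a RING1B peak at 39 members. It began a median of 31 bases after the stop codon (24 to 56). Hist1h2an, Hist1h3g and Hist1h4a had no match in this window to this form of the stem-loop.

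The genes encode few different proteins. The 11 H4 genes had 10 different coding sequences and 1 protein sequence. The 9 H3 genes had 9 coding sequences and 2 proteins, the 13 H2A genes 12 and 5, the 15 H2B genes 14 and 9, and the 6 H1 genes 6 and 6. Members with and without a RING1B peak therefore included genes for the same H4 protein.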

How the data were processed

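Lists of RING1B, SUZ12 and PCGF2 peaks, made before tamoxifen treatment, were used. The deposited values are peak starts and ends in base pairs, with no score. The authors aligned reads with Bowtie 2 to mm10 joined to hg19, kept uniquely mapped reads, removed duplicates and called broad peaks with MACS2 against Input. RING1B and SUZ12 peaks were called on merged replicates and kept where found in both lines, and RING1B peaks without a significant loss in PRC1CKO cells after tamoxifen were dropped, using RING1B data not analysed here. PCGF2 peaks were those called in every replicate of PRC1CPM cells. These rules affect which peaks are listed and their width, and read depth is not given by the lists.

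Groups were taken from the sample labels. Overlaps were counted in Python 3.11.15 with NumPy 2.4.6 and pandas 2.3.3, from GENCODE M21 TSSs. No peak on a chromosome ran past its end in GRCm38.p6. The 40-base words of promoter windows on chromosome 13 were counted on both strands of GRCm38.p6 without alternate loci or patches. Overlap and word counts were tested on simulated data against a brute-force search. No significance test was run, and 14 alternatives were tried. Named genes were every member without RING1B, every member with SUZ12, those of the 3 widest and 3 narrowest peaks, peaks shared by 3 or more members and the testis-specific genes, and further members were named after their values were seen. The members and lists were chosen with earlier results of these data known.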

Additional observations from a re-analysis of the deposited data

How the results depend on the processing

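Of 94 values recomputed under 14 alternatives, 81 stayed within 1.5 times the reported count or within the interval of the reported value, and 13 did not. The number of members with RING1B ranged from 40 to 47 where all 54 were kept. The count of members with SUZ12 was 2 as reported, 1 when the TSS itself had to lie in the peak or when TSSs within 500 bp counted as 1 promoter, and 0 with only peaks of at least 1000 bp or without the testis-specific genes. PCGF2 stayed at 0 throughout. The background share of all protein-coding genes with RING1B, 58.5% as reported, was 57% within 500 bp, 57.5% within 1000 bp and 60.3% within 5000 bp of the TSS, 54.9% with the TSS inside the peak, 55.9% with at least 500 bp and 55.4% with at least 50% of the peak in the window, 46% with only peaks of at least 1000 bp, 55.4% with the most upstream TSS only and 57.7% with coding transcripts only.

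Depth, signal height and replicate spread are not given by the lists, so a weak site and an absent one cannot be told apart. The lists differ in how they were filtered. No paired analysis was possible because each list pools its replicates. Other annotated TSSs moved no member count by over 1.5 times.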
